A study of Mus musculus with 2 samples.

Results

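The genes of protein synthesis were compared between 2 mouse mesoangioblast clones, D16 and D351, on array C of the Affymetrix U74 oligonucleotide set. The set holds every probe set that is annotated with a single gene whose symbol begins with Eif, Eef, Rpl or Rps and a digit, Nop and a digit, Polr1, Pes1 or Utp, or that encodes a cytosolic tRNA synthetase with a symbol ending in ars or ars1. A probe set is a group of short probes that together read 1 transcript. The rule gave 60 probe sets of 49 genes, out of 11868 probe sets that were no controls and 5928 genes with a probe set of their own. Another 11 probe sets that matched such a gene together with a different gene were left out.

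Mesoangioblasts are vessel-associated progenitor cells. Clones D16 and D351 each descend from a cell of the dorsal aorta of C57BL6 embryos at embryonic day 9.5, grown first as explants, then cloned by limiting dilution over mitomycin-treated embryonic fibroblasts and expanded on gelatin. No treatment, transgene or mutation is named for either clone, and both share the strain, stage and culture. Each clone is represented by 1 array of total RNA, so there is no replicate check of any difference and no p-value is given.

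Ribosomes are built in the nucleolus. RNA polymerase I makes the ribosomal RNA precursor, a U3-containing particle called the processome cuts and folds it, and ribosomal proteins join it to form the small and the large subunit. Initiation factors (eIFs) then bring the messenger cap, the initiator tRNA and the subunits together, elongation factors (eEFs) move the ribosome along, and tRNA synthetases charge each tRNA with its amino acid. In growing cells this machinery takes up a large share of all messenger RNA.

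Intensities are linear array units. A value at or below 6.4, the median of all values of both arrays, is called dim, and dim values were raised to 6.4 before ratios were taken. A probe set above this floor in at least 1 clone is called measured. A ratio with a dim side is a lower bound, written "at least", and log2 ratios are D351 minus D16. The 19 negative control probe sets, built on microbial transcripts that the cells lack, had a median of 1.9 and reached 11.2, so values up to 11.2 lie in their range. Median intensities of the arrays were 6.5 (D16) and 6.2 (D351). The 9 hybridization control probe sets were 1.59-fold brighter in D16, and scaling to them adds 0.67 to a log2 ratio between measured values.

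Over all measured members the machinery lay towards neither clone at the deposited scale. Of the 60 probe sets 44 were measured (73.3%), and 37 were above the floor in both clones. Measured were 57.5% of all probe sets, and 61% of those annotated with 1 gene, as the members are. Of the 44, 3 were at least 2-fold higher in D351 (the eEF2 methyltransferase gene Eef2kmt, the nucleolar gene Pes1 and 1 probe set of Rps3). Another 4 were at least 2-fold higher in D16 (the initiation factor genes Eif3c and Eif6, the ribosomal protein gene Rpl10l and 1 probe set of Utp15). These 7 are 15.9% of the measured members, and 19.5% of all 6828 measured probe sets passed 2-fold, 9.74% towards D351 and 9.75% towards D16. The share among the members is near this background and is no result about them. Their median log2 ratio was -0.010, beside -0.024 over all measured probe sets, with 21 members above 0 and 23 below. In both clones 21 members were above 20.7, the upper quartile of all values. Of these, 14 lay below 0 and 7 above, with a median of -0.19. Over the 2444 such probe sets of the array 1257 lay below 0 and 1180 above, with a median of -0.020. Scaling to the hybridization controls adds more to a log2 ratio than the size of either median, so this direction is not settled. Of the 21 members 4 (19%) passed 2-fold, beside 13.4% of all such probe sets. The clones were within 1.5-fold of each other for 29 of the 44 (65.9%), and for 59.7% of all measured probe sets. Across the 37 members above the floor in both clones the log2 intensities correlated with r = 0.937, across all 4960 such probe sets with r = 0.858; these points are genes of the same 2 arrays. Scaled to the hybridization controls, the median was 0.66 and the split 12 towards D351 against 3, beside 0.56 over all measured probe sets, of which 27.2% lay at least 2-fold towards D351 and 3.84% towards D16.

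**Figure D1:**
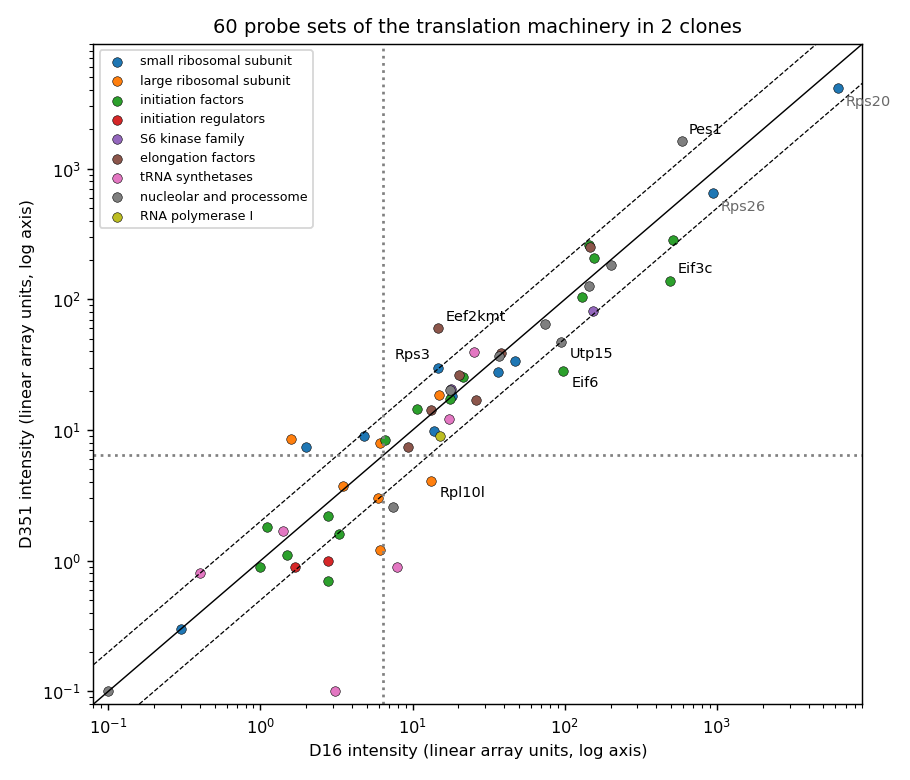
Intensity of each of the 60 probe sets in D16 (x axis) and D351 (y axis), both on log axes, coloured by subfamily, with the line of equality, the 2-fold lines (dashed) and the floor of 6.4 (dotted). Most measured points lie between the 2-fold lines, and Pes1 and Eef2kmt lie above them while Eif3c and Eif6 lie below.

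The promoters of the genes with the largest ratios, and of Utp15 and Eef2, are shown as their sequence context. RefSeq (GRCm38.p6) gave a promoter of 300 bases, 250 before the start to 50 after it, for 38 of the 49 genes. Eif6 had no entry. The 100 bases before the start are printed 5′ to 3′ on the gene's strand, with 2 motifs in capitals. These are CACGTG, an E-box of the kind that Myc family proteins bind, and CCGGAAG or its reverse complement CTTCCGG, the core of many ETS family sites. The regions are, in order, chr16:5255957-5256056 (minus strand), chr11:3963875-3963974 (plus), chr7:126566367-126566466 (minus), chr13:98262993-98263092 (minus) and, for eEF2 itself, chr10:81176531-81176630 (plus).
Eef2kmt: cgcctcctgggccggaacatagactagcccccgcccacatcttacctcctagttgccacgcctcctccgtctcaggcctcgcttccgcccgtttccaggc
Pes1: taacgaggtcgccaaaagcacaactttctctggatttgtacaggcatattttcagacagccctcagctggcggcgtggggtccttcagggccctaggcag
Eif3c: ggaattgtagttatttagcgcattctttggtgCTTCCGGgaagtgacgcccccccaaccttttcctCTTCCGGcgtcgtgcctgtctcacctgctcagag
Utp15: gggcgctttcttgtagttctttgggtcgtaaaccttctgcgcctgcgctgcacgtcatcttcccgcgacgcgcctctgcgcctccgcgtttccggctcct
Eef2: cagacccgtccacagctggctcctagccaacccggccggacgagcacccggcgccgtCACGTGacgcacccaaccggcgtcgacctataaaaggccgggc
The Eif3c promoter held the ETS core at 2 places, with first bases at -68 and -34 from the start, and the Eef2 promoter held the E-box at -43. In Pes1 an E-box began at the third base after the start, outside the printed stretch. In the 300-base windows of Eef2kmt and Utp15 neither motif occurred. Over both strands, CCGGAAG was in the promoters of 17 of the 38 genes (44.7%), against 16.6% of the 4254 protein-coding genes with a probe set of their own on the array and a promoter in the table. CACGTG was in 8 of 38 (21.1%), against 9.78%. CACGTG reads the same on both strands, copies of the ETS core on opposite strands can overlap, and a gene was counted once whichever of its starts held the motif. A match describes these letters only.

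Ribosomal proteins of the small subunit lay to both sides. Of 10 probe sets 9 were measured, with 4 above 0, 5 below and a median log2 ratio of -0.39 (-0.13 over the unmarked probe sets, whose identifier carries no letter for relaxed probe selection or shared sequence). Over all measured probe sets 3288 lay above 0 and 3509 below, so this split is near that of the array. Rps20 read 6237 in D16 and 4135 in D351, 1.51-fold apart, by a probe set of the kind that shares sequence with related transcripts. Its other probe set was dim in D16 at 4.8 and read 9 in D351, inside the range of the negative controls. Rps26 stood at 943.6 in D16 and 656.9 in D351, also by a shared-sequence probe set. Both genes have processed copies in the genome, so the transcripts these probes read cannot be fully told apart. Rps13 read 46.8 and 33.8. Rps27l, a paralogue of Rps27 known as a p53 target, read 13.8 and 9.8, the latter within the range of the negative controls. Together with 1 probe set of Rps3, these are 5 of the 7 small subunit probe sets measured in both clones, all higher in D16 by under 1.6-fold, which is within the spread between probe sets of a gene given below. Scaled to the hybridization controls the median of the subunit became 0.28, so this direction turns with the scaling.

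Rps3, a protein at the mRNA entry of the small subunit, gave opposite readings. A first probe set gave 14.7 for D16 and 29.6 for D351, a ratio of 2.01-fold. The other, slightly brighter, read 36.6 in D16 and 27.9 in D351. The 2-fold difference of Rps3 is therefore not borne out by its other probe set, and a floor of 20.7 left at least 1.43-fold. Rps14, part of the platform of the small subunit, was equal in the clones at 18.2 and 18.3. Rps6, the substrate of the S6 kinases, was dim in D16 at 2 and read 7.4 in D351, within the range of the negative controls. Rps15a was dim in both clones, at 0.3 in each.

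The large subunit was poorly read. Of 7 probe sets 4 were measured, and only Rpl13 was above the floor in both clones, with 15 in D16 and 18.5 in D351. Rpl10l, an intronless copy of Rpl10 known for its role in spermatogenesis, stood at 13.2 in D16 and a dim 4.1 in D351, at least 2.06-fold apart. With the floor at 20.7 it was dim in both clones, and Rpl10 itself is closely similar in sequence. Rpl22 (1.6 in D16 and 8.5 in D351) and Rpl37 (6.1 and 7.9) were dim in D16 and within the range of the negative controls in D351. Rpl38 (3.5 and 3.7) was dim in both clones. So were both probe sets of Rpl3l, the striated muscle paralogue of Rpl3, at 6.1 and 5.9 in D16 and at 1.2 and 3 in D351. Over both subunits, 8 of 17 probe sets had their higher value within the range of the negative controls, although ribosomal protein messengers are abundant in growing cells. How well these probe sets read their messengers was not tested.

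**Figure D2:**
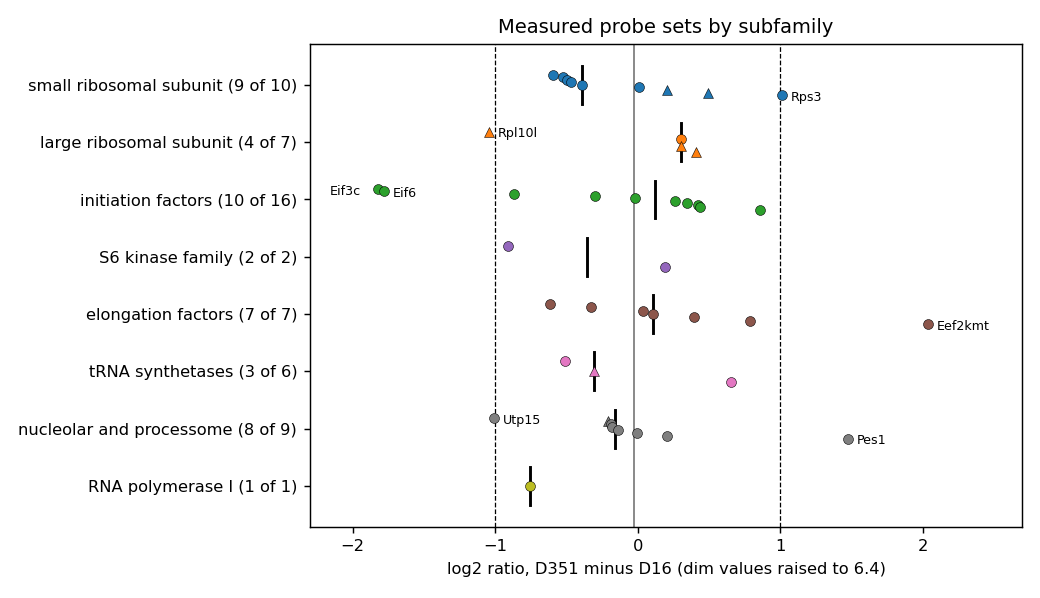
Log2 ratio, D351 minus D16, of each measured probe set by subfamily, with the number measured of the number on the array. Circles are ratios between measured values, triangles lower bounds, black bars subfamily medians, the grey line the median of all measured probe sets (-0.024) and dashed lines 2-fold. Each subfamily median lies between the 2-fold lines, and the named probe sets lie on or beyond them.

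Among initiation factors, 2 were past 2-fold, both higher in D16. Eif3c, a core subunit of the eIF3 complex that holds the small subunit ready for the messenger, read 492.3 in D16 and 139.4 in D351. This is a 3.53-fold excess in D16. Eif6, which keeps the large subunit from joining too early and also acts in its assembly, read 97 in D16 and 28.2 in D351, an excess of 3.44-fold in D16. Both were read by an unmarked probe set. Scaled to the hybridization controls they remained past 2-fold, at log2 ratios of -1.15 for Eif3c and -1.11 for Eif6.

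The other factors were all under 2-fold. Eif3i, the other eIF3 subunit on the array, read 10.7 in D16 and 14.5 in D351, with the D16 value within the range of the negative controls. Eif2b4, the delta subunit of the eIF2B exchange factor that recharges eIF2, stood at 516.4 and 283.3, 1.82-fold higher in D16 by a shared-sequence probe set. Eif2b3, the gamma subunit of the same factor, was dim in both clones at 2.8 and 0.7. Towards D351 lay Eif1ax, which takes part in scanning for the start codon, also by a shared-sequence probe set. It read 143.4 in D16 and 260 in D351, 1.81-fold apart. Eif5a2, an isoform of the hypusine-bearing factor eIF5A, read 155.2 and 208.1 by a marked probe set.

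The measured factors of cap recognition differed little. Eif4e, which binds the cap, read 128.9 in D16 and 104.9 in D351 by a shared-sequence probe set. Eif4e2, a cap-binding homologue that represses translation, read 21.3 and 25.6, and its other probe set was dim in both clones. The cap-binding homologue Eif4e1b (3.3 and 1.6) and both probe sets of the scaffold Eif4g3 (1.1 to 2.8) were also dim. Eif2s3x, the gamma subunit of eIF2, was equal at 17.6 and 17.4 by 1 probe set and dim by the other, at 1 and 0.9. Eif2d, which can deliver tRNA to the ribosome without eIF2, read 6.6 and 8.4, both within the range of the negative controls. Of the 16 initiation factor probe sets 10 were measured, all in both clones, with 5 above 0 and 5 below. Their median was 0.12, but -0.76 over the unmarked probe sets, so the group as a whole has no settled direction.

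The regulators of initiation gave little. Eif2ak3, the kinase PERK that shuts initiation down under endoplasmic reticulum stress, was dim at 1.7 in D16 and 0.9 in D351. Eif4ebp2, an inhibitor of the cap-binding protein, was dim at 2.8 and 1. The S6 kinase symbols name kinases and not ribosomal proteins. Rps6ka3, the growth factor-activated kinase RSK2, read 152.2 in D16 and 81 in D351, a 1.88-fold excess in D16. Rps6kl1, a related kinase-like gene, read 18 and 20.6.

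Of the elongation genes, only the eEF2 methyltransferase gene passed 2-fold. Eef2kmt, which methylates a lysine of eEF2, read 14.7 in D16 and 60.3 in D351. Its ratio of 4.10-fold was the largest of the measured members. A floor of 20.7 left at least 2.91-fold. Eef2, the factor that moves the ribosome by a codon, read 146.8 in D16 and 253.4 in D351, 1.73-fold apart and so under the 2-fold rule. Eef2k, the kinase that inhibits eEF2, read 37.8 and 38.8 by 1 probe set and 20.1 and 26.4 by another, built on the same sequence and so not an independent reading.

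The genes acting on the other elongation factor, eEF1A, were under 2-fold. Eef1b2, a subunit of its exchange factor, was higher in D16 by both of its probe sets, at 26.2 against 17.1 and at 9.3 against 7.4, the latter pair within the range of the negative controls. Eef1aknmt, which methylates eEF1A, read 13.2 and 14.2. All 7 elongation probe sets were measured in both clones, with 5 above 0 and a median of 0.11. Over all measured probe sets 3288 lay above 0 and 3509 below. The 5 were those of the methyltransferase genes Eef2kmt and Eef1aknmt, both of the kinase gene Eef2k, and that of Eef2. Both probe sets of the exchange factor gene Eef1b2 lay below 0, so the count gives no direction for the factors themselves.

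Of 6 tRNA synthetase probe sets 3 were measured, and none passed 2-fold. Wars, for tryptophan, read 25.4 in D16 and 39.9 in D351, 1.57-fold apart, while its other probe set was dim at 1.4 and 1.7. Gars, for glycine, read 17.4 and 12.2. Kars, for lysine, stood at 7.9 in D16 and a dim 0.9 in D351, at least 1.23-fold apart. Hars (0.4 and 0.8) and Rars (3.1 and 0.1), for histidine and arginine, were dim in both clones.

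Of the nucleolar genes, Pes1 was higher in D351. Pes1 works with Bop1 and Wdr12 in maturing the large subunit RNA. It read 585.9 in D16 and 1629.2 in D351, a 2.78-fold ratio by an unmarked probe set. Over the settings tried its log2 ratio ran from 1.45 to 2.15. Nop16, another protein of large subunit assembly, read 17.7 and 20.4.

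The measured processome genes were equal or higher in D16, by up to 2.01-fold, at the deposited scale. Utp15 read 94.4 in D16 and 47 in D351 by an unmarked probe set, 2.01-fold apart, but 202.3 and 184.3 by a brighter, shared-sequence probe set. Scaled to the hybridization controls, the first gave a log2 ratio of -0.33. Utp6 read 143.9 and 126.9, Utp25 37.2 and 37.1, and Utp3 74.3 and 65.2, with its other probe set dim at 0.1 in both clones. Utp18 stood at 7.4 in D16 and a dim 2.6 in D351, both within the range of the negative controls. Of 9 nucleolar and processome probe sets 8 were measured, 2 above 0 and 6 below, with a median of -0.16. This median became 0.52 when scaled to the hybridization controls and was 0.10 over the unmarked probe sets, so its direction is not settled. Polr1e, a subunit of RNA polymerase I and its only gene in the set, read 15.2 in D16 and 9 in D351, 1.69-fold apart.

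Where a gene had a pair of probe sets, their directions did not always match. Of 11 such genes both probe sets were measured for 5. The directions matched for Eef1b2, Eef2k and Utp15 and opposed for Rps3 and Rps20. For 4 genes 1 probe set was measured while the other was dim in both clones (Eif2s3x, Eif4e2, Utp3 and Wars), and for Eif4g3 and Rpl3l both were dim. Over the whole array, the log2 ratios of 409 such pairs measured in both clones differed with a root mean square of 0.67 per probe set. Log2 ratios of the 37 members above the floor in both clones had an SD of 0.78, and among all such probe sets 0.83. The ratios of Rps3 and Utp15, just past 2-fold, are thus of about the size at which probe sets of 1 gene part. Those of Eef2kmt, Eif3c, Eif6 and Pes1 are larger, but they were named as the largest ratios of the measured members. Each of these 4 genes is read by 1 probe set, so no other probe set could bear its ratio out or oppose it. The size of the Rpl10l difference is set by the floor, with a log2 ratio of -1.04 as reported and -1.69 with a floor of 1.8.

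**Figure D3:**
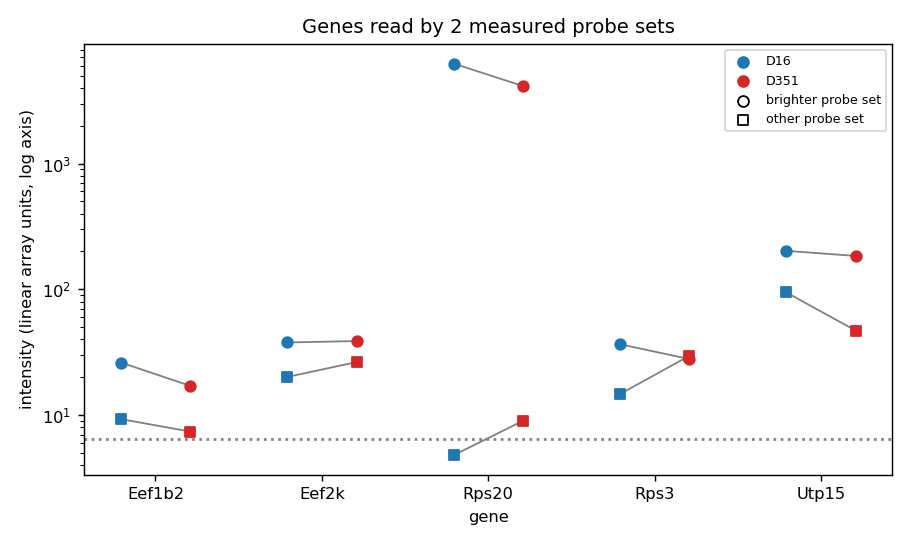
Intensity (log axis) in D16 (blue) and D351 (red) of the 5 genes with 2 measured probe sets, circles for the brighter and squares for the other probe set, with the floor of 6.4 dotted. The lines of Rps3 and Rps20 run in opposite directions, and those of Utp15 both run down to D351, from 202.3 to 184.3 and from 94.4 to 47.

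Other genes of the pathway were taken from gene lists, each gene by its brightest probe set; 20.5% of all 3934 measured genes passed 2-fold, 10.3% towards D351 and 10.2% towards D16. Of 32 measured genes of ribosome assembly outside the rule, 2 passed 2-fold towards D351 and 3 towards D16, and the list median was -0.25 beside -0.022 over all genes. Ebna1bp2, a large subunit assembly factor, read 84.2 in D16 and 13.9 in D351, 6.06-fold apart, and its other probe set read 60.6 and 16.3. Both of its probe sets are marked, and whether they are independent readings was not tested. Rbm28 was 13.6-fold higher in D16 by its brightest probe set (590.1 and 43.5), but the others read 162.5 and 123.4, and 64.6 and 111.6. Tcof1, a cofactor of RNA polymerase I, was at least 2.88-fold higher in D16, at 18.4 against a dim 3.7, but a floor of 20.7 made it dim on both arrays, and its other probe set was dim in both (3.1 and 1.5). The helicase gene Ddx52 was 2.43-fold higher in D351 (58 and 141), and Pop4, of RNase P, at least 4.02-fold by 1 of its 3 probe sets (4.7 and 25.7), and a floor of 20.7 left at least 1.24-fold.

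The remaining lists were short. Of 6 measured RNA polymerase III genes, Polr3e was 2.03-fold higher in D16 (186.8 and 92.2), with its other probe set at 69.3 and 39.4. Of 6 genes of termination and recycling, Mcts2 was 2.86-fold higher in D16 (138.8 and 48.5). Both measured genes for poly(A) and TOP messenger binding were at least 2-fold higher in D16, Larp1b at 154.9 and 64.1 and Pabpc1 at 14.7 and a dim 4.8, but with a floor of 20.7 Pabpc1 was dim on both arrays. Of 6 genes of the integrated stress response, the amino acid transporter chain Slc3a2 passed 2-fold towards D16 (21.6 and 9.5), though not with the floor at 20.7. None of 6 measured genes of mTORC1 and growth signalling passed 2-fold, with a median of 0.028. From the list of other synthetase genes and their partners only Farsb was on the array, with a log2 ratio of -0.89.

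Few defining markers of the cultures were on this array. Of 16 mesoangioblast and mural genes 3 were. Lmod1 (2.6 and 288.2), Acta2 (4.7 and 15.4) and Kdr (1.6 and 9.5) were dim in D16 and above the floor in D351. Lmod1 remained at least 13.9-fold higher in D351 when the floor was 20.7, but Acta2 was then dim on both arrays. Kdr in D351 was no brighter than the top negative control value of 11.2. The directions of Acta2 and Kdr are therefore not settled. Of 11 fibroblast markers the array held 4 (Col5a1, Mfap5, Loxl1 and Fgf10), all at least 3.19-fold higher in D351 by their brightest probe sets, with a median log2 ratio of 2.00. The other probe sets of Col5a1 and Mfap5 were dim in both clones, and that of Fgf10 read 17.9 and 28.6. Of the other markers Itga2b, of blood cells, read 38.7 and 49.9. The endothelial genes Flt1 (1.3 and 87.6) and Egfl7 (19.5 and 3.8) lay in opposite directions, each with a dim side. With a floor of 20.7 Flt1 remained at least 4.23-fold higher in D351, but Egfl7 was dim on both arrays. The other probe set of Egfl7 was dim in both clones (2.3 and 3.3), so its direction is not settled. The part of other cell types in the results above was not tested, and in such RNA fewer cells of a type and less RNA per cell cannot be told apart.

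Eef2kmt, Pes1, Eif3c and Eif6 kept their 2-fold difference under all 9 alternatives that gave them a value, although the log2 ratio of Eef2kmt ran from 1.54 to 2.71. Utp15 passed under 6 of 8, Rpl10l under 7 of 8 and Rps3 under 2 of 7, counts that also include settings unable to change the value.

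**Figure D4:**
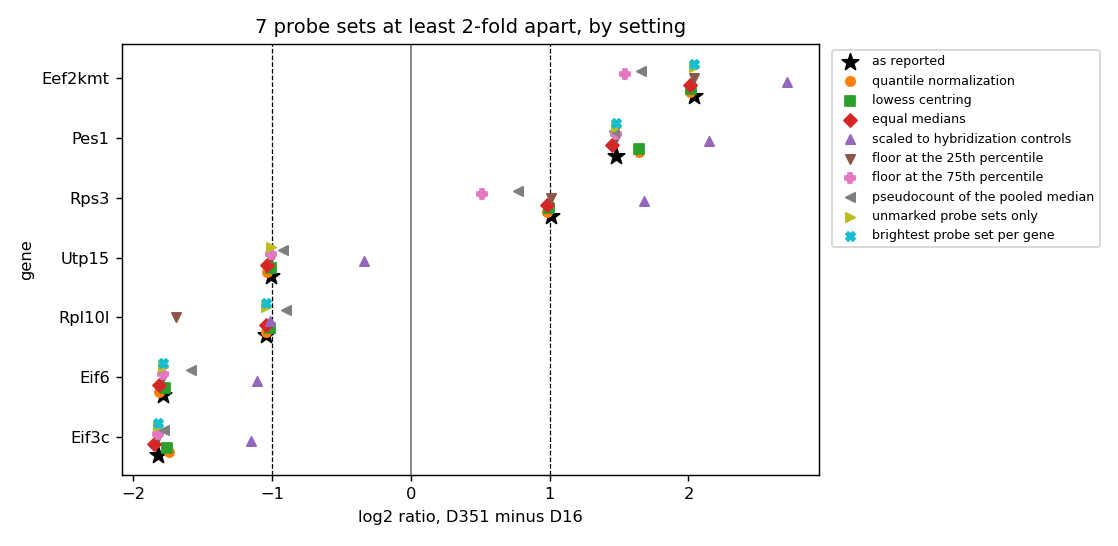
Log2 ratio, D351 minus D16, of the 7 probe sets at least 2-fold apart, as reported (star) and under the alternatives that gave a value, with dashed lines at 2-fold. No probe set changes sign, though some settings could not move a value, and Rps3, Utp15 and Rpl10l come inside the 2-fold lines under some settings.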

How the data were processed

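The authors deposited 1 linear intensity per probe set and array, used here as deposited. The summarizing software is not given in the sources used here. With the lowest and highest 2% left out, the mean was 20.01 on both arrays. The 66 control probe sets were left out. Gene names came from the platform annotation, where 7717 of 11868 probe sets had 1 gene, and all 49 member genes were found in the RefSeq table (GRCm38.p6) with 0 symbols changed.

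The floor was the pooled median, and called means 2-fold. With 1 array per clone nothing was tested, and precision is limited by the small number of arrays. Every member past 2-fold was described, or the brightest members of a subfamily, and the rest were given by their values. From the other lists, genes past 2-fold were named, at most the 4 largest in each direction. The members, lists and settings were chosen with earlier results of these data known. The code for the ratios was checked on simulated arrays, with large changes in bright probe sets and less noise than the spread between probe sets of a gene. That check says nothing about the error of the ratios above. Alternatives were quantile normalization, lowess centring (span 0.3), equal medians, scaling to the hybridization controls, floors at the 25th and 75th percentiles, a pseudocount, unmarked probe sets, the brightest probe set per gene and a 3-fold rule. Scripts ran under Python 3.11.15 (matplotlib 3.10.9 for plots, statsmodels 0.14.6 for lowess, with scipy 1.17.1, pandas 2.3.3 and numpy 2.4.6).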

Additional observations from a re-analysis of the deposited data

How the results depend on the processing

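Scaled to the hybridization controls, 12 members passed 2-fold towards D351 and their median log2 ratio was 0.66. With the floor at the 25th percentile, 1.8, the counts were 5 towards D351 and 7 towards D16 and the median -0.18, beside -0.057 over all measured probe sets, of which 31.7% then passed 2-fold. With the floor at 20.7 the median was also -0.18, beside 0.00031 over all. With a pseudocount 2 members passed 2-fold towards D16, and 9.09% in either direction, beside 15.9% of all measured probe sets. With a 3-fold rule 1 passed towards D351 and 2 towards D16, together 6.82% beside 7.25%. The other counts stayed within 1.5 times. None of 59 values of the 7 probe sets past 2-fold changed sign, though some settings could not change them. Of 70 subfamily medians 11 moved by more than the error that the spread between probe sets of a gene gives. By construction, scaling to the hybridization controls adds the same amount to every log2 ratio between measured values. A lower floor admits more dim values, also by construction. The cause of the other shifts was not tested. No paired analysis was possible because each clone has 1 array. Without replicate arrays the error of a single probe set is unknown, and near the floor a ratio is set by the floor.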
